A study of Mus musculus with 6 samples.

Results

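The 43 genes described here encode the machinery of mitosis and chromosome segregation: cyclins with their kinase, mitotic kinases, checkpoint proteins, kinesin motors, kinetochore and condensin subunits, and proteins of cytokinesis. They were chosen by gene symbol, and all 43 were found among the 15106 genes of the deposited count table. Most have transcripts that are made late in the cell cycle, accumulate in G2 and are scarce in resting lymphocytes, so their summed level in a bulk sample is widely read as a sign of cycling cells. In bulk RNA, fewer cycling cells and less of these transcripts per cell cannot be told apart.

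Transcripts were counted by RNA-seq in regulatory T cells (Tregs), the suppressive CD4 T cells defined by FOXP3, and in effector T cells (Teffs), both sorted from mouse skin. There were 4 Treg libraries and 2 Teff libraries. All libraries came from mice aged 6 weeks with the genotype FOXP3-GFP, a reporter that makes FOXP3-expressing cells fluorescent, and no other allele or treatment is named for either group. The labels give neither the surface gate of the Teffs nor whether animals were pooled or separate, so p-values measure only the spread between these libraries, which may be technical.

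Gene counts came to 5582022 to 7046685 per Treg library and Teffs 1 and 2 held 7468778 and 4902126. Levels are given as CPM, counts scaled to library sizes that were adjusted by TMM, and 3 counts correspond to 0.397 to 0.581 CPM. Treg 1 and Treg 2 had counts for fewer genes (9602 and 9838) than Treg 3 and Treg 4 (12605 and 11074) or Teff 1 and Teff 2 (13197 and 11894). The 9 T cell markers, Cd3e and Cd4 among them, had counts in every library. Foxp3 and the other 4 Treg markers summed to 6080 to 9400 CPM in Treg libraries, against 334 and 213 CPM across Teffs 1 and 2. Libraries stood apart in skin cell transcripts: the 10 fibroblast markers summed to 3230 CPM in Treg 3, 404 CPM in Teff 1 and 4.42 to 10.5 CPM in each of the other 4 libraries, and the 9 keratinocyte markers in the table to 1390 CPM in Treg 3, to 220 and 66.7 CPM across Teffs 1 and 2 and to at most 20.7 CPM in the other Treg libraries. Fibroblasts and keratinocytes can cycle, and their part in the values below was not tested. Other T cells also differed: the 2 CD8 T cell markers summed to 0.18 to 65.6 CPM in Treg libraries, against 142 and 93.6 CPM across Teffs 1 and 2, and the 2 gamma-delta T cell markers in the table to 0 CPM in every Treg library, against 15.5 and 14.9 CPM across Teffs 1 and 2. The part of these cells in the lower mitotic levels of Tregs was not tested.

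Promoters of mitotic genes are known for a cell cycle homology region (CHR), where the DREAM complex represses them in resting cells and the MuvB complex with B-MYB and FOXM1 activates them before mitosis, and for CCAAT boxes bound by NF-Y. RefSeq promoter windows (GRCm38.p6) were available for 36 of the 43 genes and were searched on both strands for the 3 motifs, with 1 window per gene (the first listed where RefSeq gives several starts). The CHR was spelled TTTGAA or TTCGAA, the box by the letters CCAAT, and the E2F-like site TTCCCGC or TTCGCGC or TTGCCGC or TTGGCGC. The last 120 bases before the start are shown for 7 genes. Top2a and Ncapg had the lowest p-values between Tregs and Teffs, Cdk1, Kif11 and Mki67 stand for the kinase, the motors and the proliferation marker, and Cenpa and Racgap1 are the genes with higher means in Tregs. Capitals mark matches to any of the motifs on either strand, so a box in reverse reads ATTGG, and each sequence runs 5′ to 3′ on the strand of its gene.
Top2a (chr11:99024190-99024309, minus strand): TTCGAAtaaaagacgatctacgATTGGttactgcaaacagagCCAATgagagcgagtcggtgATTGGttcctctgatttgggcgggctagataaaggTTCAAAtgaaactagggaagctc
Ncapg (chr5:45669805-45669924, plus strand): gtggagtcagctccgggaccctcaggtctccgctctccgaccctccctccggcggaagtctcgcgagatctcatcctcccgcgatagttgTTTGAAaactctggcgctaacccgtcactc
Cdk1 (chr10:69352913-69353032, minus strand): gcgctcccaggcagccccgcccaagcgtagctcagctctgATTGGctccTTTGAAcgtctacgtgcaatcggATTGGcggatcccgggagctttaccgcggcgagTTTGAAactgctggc
Kif11 (chr19:37376262-37376381, plus strand): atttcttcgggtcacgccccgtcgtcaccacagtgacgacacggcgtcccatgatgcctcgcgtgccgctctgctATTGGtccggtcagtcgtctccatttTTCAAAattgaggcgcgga
Mki67 (chr7:135716380-135716499, minus strand): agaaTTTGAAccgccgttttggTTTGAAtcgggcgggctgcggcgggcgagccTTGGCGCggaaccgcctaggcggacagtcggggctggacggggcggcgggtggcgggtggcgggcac
Cenpa (chr5:30666766-30666885, plus strand): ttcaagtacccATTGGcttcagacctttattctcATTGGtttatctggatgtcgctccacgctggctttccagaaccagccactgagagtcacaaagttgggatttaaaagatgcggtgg
Racgap1 (chr15:99651657-99651776, minus strand): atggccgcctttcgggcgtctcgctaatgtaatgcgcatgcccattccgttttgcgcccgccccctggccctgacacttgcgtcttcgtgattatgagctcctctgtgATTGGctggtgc

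In Top2a the CHR nearest the start lay 23 bases before it, behind CCAAT boxes at 58, 78 and 98 bases and another CHR at 120 bases. Cdk1 held a CHR at 15 and another at 71 bases, with CCAAT boxes at 48 and 80 bases. Ncapg and Kif11 each had a CHR close to the start, at 30 and 19 bases. Cenpa had CCAAT boxes alone, at 86 and 109 bases, and Racgap1 a single CCAAT box at 12 bases. Genes with lower means in Tregs could also lack a CHR before the start, Plk1, Cenpe, Bub1 and Prc1 among them. Whether the motifs go with the direction of change was not tested. Over the 250 bases before the start, a CHR was found in 15 of the 36 mitotic promoters (41.7%), against 12.1% of the 8889 tested genes with a promoter window, and a CCAAT box in 29 (80.6%), against 36.6%. Of the mitotic promoters, 19 (52.8%) held more than 1 CCAAT box, against 14% of tested genes. An E2F-like site was found in 6 (16.7%), against 14.3%. When the 50 bases after the start were included, 29 of 36 held a CHR (80.6%), against 13.8% of tested genes. In the same 300 bases a CHR was found in 16.7% and an E2F-like site in 59.5% of 42 promoters of DNA replication genes. An E2F-like site in reverse can overlap a CCAAT box, as it does in Ccnb1. These matches describe letters in a window and are not evidence of binding.

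**Figure D1:**
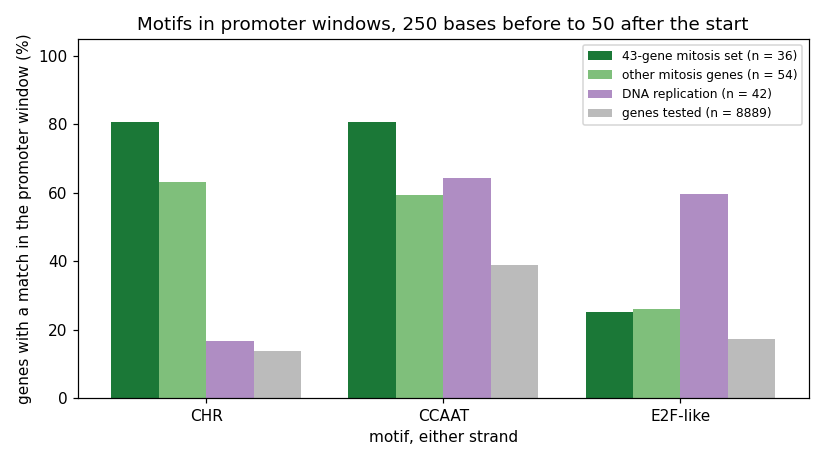
Share of genes (y axis, %) whose RefSeq promoter window, 250 bases before to 50 after the start, holds a match to each motif on either strand (x axis), for the 43-gene mitosis set, other mitosis genes, DNA replication genes and all genes tested. CHR matches stand at 80.6% in the mitosis set and 13.8% in all genes tested, and E2F-like matches are most frequent among replication genes, at 59.5%.

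Taken over all 43 genes, Tregs held less mitotic transcript than Teffs in every library. The summed level was 1429, 1633, 1944 and 2127 CPM across Tregs 1 to 4, against 4890 and 3892 CPM across Teffs 1 and 2. The mean was 1780 ± 312 CPM in Tregs (SD, n = 4) and 4390 ± 706 CPM in Teffs (SD, n = 2), a log2 ratio of -1.30. The groups did not overlap in this sum. Mki67, Top2a and Smc4 together made up 38.1% to 47% of the sum in Treg libraries and 32.4% and 40.2% in Teff 1 and Teff 2. Without these 3 genes the sum was 770 to 1128 CPM in Treg libraries, against 3304 and 2327 CPM across Teffs 1 and 2. Set against the summed T cell markers, the ratio was 0.152, 0.203, 0.384 and 0.218 across Tregs 1 to 4, against 0.508 and 0.376 in Teff 1 and Teff 2. On that scale Treg 3, the library with the most fibroblast and keratinocyte transcripts and the lowest T cell marker sum, lay between the Teff libraries.

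**Figure D2:**
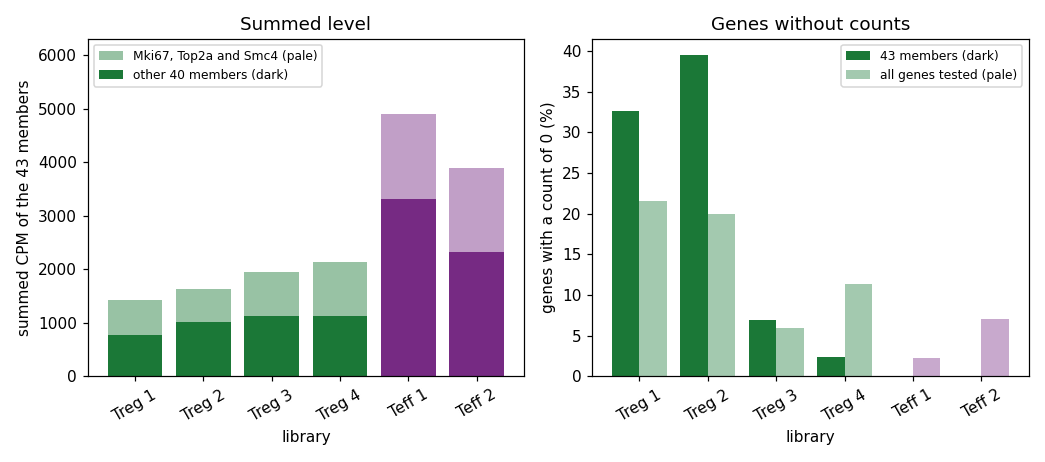
Left, summed level of the 43 genes (y axis, CPM) in each library (x axis), dark for 40 of the genes and pale for Mki67, Top2a and Smc4, green for Treg and purple for Teff. Right, share of genes without counts (y axis, %) in each library, dark for the 43 genes and pale for all genes tested. The 4 Treg sums lie between 1429 and 2127 CPM, below both Teff sums, and genes without counts are concentrated in Treg 1 and Treg 2.

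Many of these genes had no counts in some Treg libraries. Counts were found for 29, 26, 40 and 42 of the 43 genes across Tregs 1 to 4, against all 43 in both Teff libraries, and thinning to the smallest library moved none of these numbers by more than 0.1. Genes without counts made up 32.6%, 39.5%, 6.98% and 2.33% of the set across Tregs 1 to 4, against 0% in both Teff libraries. Over all genes tested the same shares were 21.6%, 19.9%, 5.9% and 11.3% across Tregs 1 to 4, against 2.23% and 7.1% in Teff 1 and Teff 2. Treg 1 and Treg 2 thus missed these genes more often than other genes, while Treg 4, with fewer genes detected than Teff 2, missed only Nek2. The missing genes differed between libraries: 8 had no counts in both Treg 1 and Treg 2, 6 in Treg 1 of these libraries alone and 9 in Treg 2 alone. Whether such zeros stand for absent transcripts or for transcripts lost in ultra-low-input libraries was not tested.

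No mitotic gene passed the test between Tregs and Teffs. In edgeR's quasi-likelihood test over 11775 genes, 0 of the 42 genes tested were called lower and 0 higher at an adjusted p under 0.05, where 0.00849% of all genes were called lower and 0.034% higher. The unadjusted p was under 0.05 for 3 genes, Top2a, Ncapg and Cenpe, all lower in Tregs, where 2.31% of all genes tested were lower at that threshold. DESeq2 called 2 genes lower, Top2a and Ncapg (adjusted p of 0.000187 and 0.0120), where it called 0.365% of all genes lower, and gave no adjusted p for Aurkb, Bub1b and Cdk1. Limma-voom called none, against 0.017% of all genes called lower, and the authors' deposited table calls none at an FDR under 0.05, against 0.0927% of its genes called lower. The lowest value there is 0.144, for Top2a. The common biological coefficient of variation over the fit was 1.2, and a p that misses the threshold does not show that levels were alike.

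The direction was shared widely. The log2 fold change, Treg minus Teff, was negative for 40 of 42 genes, against 46.6% of all genes tested. Its median was -1.39, beside 0.07 over all genes, whose range from the 5th to the 95th percentile was -2.27 to 2.44. All 4 Treg libraries lay below both Teff libraries for 23 of the 42 genes (54.8%), against 9.49% of all genes tested, and above both for 0, against 5.51%. Each Treg library by itself lay below both Teffs for 33 to 36 of the 42 genes (78.6% to 85.7%), against 38.1% to 47.6% of all genes. A filter can favour such counts, since 6 of the 42 genes passed it through the Teff libraries and without 2 Treg libraries above 1.62 CPM. These were Ccnb1, Cdk1, Plk1, Aurkb, Bub1b and Kif2c. Of them, Cdk1, Aurkb, Bub1b and Kif2c are among the 23 genes without overlap. For the other 36 genes the median was -1.33 and 34 fold changes were negative, beside 0.12 and 43.7% negative over all genes that passed through Tregs. Where every library had at least 10 counts, which left 19 genes, 10 had no overlap, all lower in Tregs (52.6%, against 6.83% of 6571 such genes), with a median of -1.09.

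**Figure D3:**
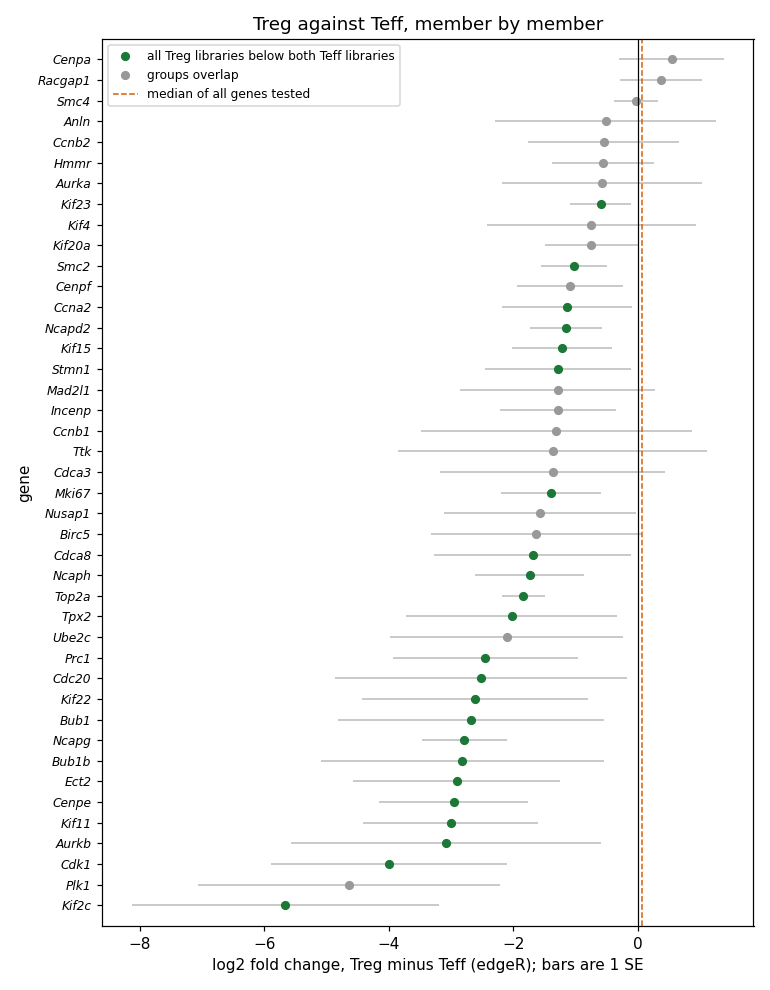
Log2 fold change, Treg minus Teff, with 1 SE (x axis) for each of the 42 genes tested (y axis), green where all Treg libraries lay below both Teff libraries and grey where groups overlap, with the median of all genes tested as a dashed line at 0.07. Values run from -5.66 for Kif2c to 0.54 for Cenpa, and 40 of 42 are negative.

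Mki67 and Top2a differed in how evenly they were lower. Mki67, whose protein coats mitotic chromosomes, stood at 23.8, 162, 322 and 312 CPM across Tregs 1 to 4, against 506 and 580 CPM across Teffs 1 and 2. The Treg libraries lay below both Teffs but spread widely, with Treg 1 far down. The log2 fold change was -1.40 ± 0.80 (SE; edgeR adjusted p = 1). Top2a, the topoisomerase that untangles sister DNA, was at 135, 181, 149 and 235 CPM across Tregs 1 to 4, against 660 and 597 CPM across Teffs 1 and 2. Its Treg values were close together, and its log2 fold change of -1.84 ± 0.34 (edgeR adjusted p = 0.227) had the smallest error of any gene with a fold change below -1. Mki67 lies on chromosome 7 from 135689784 to 135716361 and Top2a on chromosome 11 from 98992943 to 99024189 (GRCm38). In Treg 1 Top2a stayed at a level near that of the other Tregs where Mki67 was lowest.

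Cdk1 differed most among the cyclins and their kinase. Cdk1, which drives entry into mitosis, had 0, 0.320, 1.05 and 19.4 CPM across Tregs 1 to 4, against 94.8 and 72.3 CPM across Teffs 1 and 2. Both Teff libraries were high and Treg 4 alone among Tregs held more than 6 counts. The log2 fold change was -4.00 ± 1.90 (edgeR adjusted p = 1). Cdk1 passed the filter on low counts through the Teff libraries, where it is high, which favours a low fold change. Ccnb1, the cyclin B1 that activates this kinase, was low throughout, at 9.92, 0, 0.877 and 1.57 CPM across Tregs 1 to 4, against 8.21 and 7.17 CPM across Teffs 1 and 2. Treg 1 lay above both Teff libraries, so the groups overlapped. Ccnb2, cyclin B2, also overlapped, at 19.1, 5.92, 22.8 and 14.6 CPM across Tregs 1 to 4, against 29.1 and 16.7 CPM across Teffs 1 and 2. Ccna2, the cyclin of S phase and G2, was at 2.35 to 56.5 CPM in Tregs and 75.6 and 72.7 CPM in Teffs, without overlap (log2 fold change -1.14 ± 1.04).

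Plk1, Ttk, Aurka and Nek2, grouped here as mitotic kinases, were scarce and uneven, and groups overlapped for all 3 that were tested. The kinase genes Cdk1, Aurkb and Bub1, placed under other roles, did not overlap between groups. Plk1, a kinase of centrosome maturation and mitotic entry, was at 0, 0, 0.526 and 2.28 CPM across Tregs 1 to 4, against 34.2 and 1.94 CPM across Teffs 1 and 2. Its fold change (log2 -4.64 ± 2.42) rested on 258 counts in Teff 1, since Teff 2 had 10. Ttk, the checkpoint kinase Mps1, was likewise split between 51.2 CPM in Teff 1 and 1.94 CPM in Teff 2, and without Teff 1 its log2 fold change was 2.39 ± 4.63 in place of -1.37 ± 2.48. Aurka, the spindle pole kinase Aurora A, was highest in Treg 1 at 36.1 CPM and at 2.28 to 9.92 CPM in the other Tregs, against 28.9 and 9.11 CPM across Teffs 1 and 2. Nek2, a kinase of centrosome separation, did not pass the filter on low counts. It had 0 counts in every Treg library and 16 and 7 counts in Teff 1 and Teff 2. Against a floor of 3 counts over the group, pooled counts put it at least 14.8-fold lower in Tregs. That bound covers counting error in Tregs only and takes the Teff counts as exact. It leaves out the spread between libraries and transcripts lost from them.

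The chromosomal passenger complex, which corrects faulty attachments of chromosomes to the spindle, was found unevenly. Aurkb, its kinase Aurora B, had 0, 0, 0 and 26.3 CPM across Tregs 1 to 4, against 43.2 and 68.0 CPM across Teffs 1 and 2. Treg 4 was the sole Treg library with counts, and it lay below both Teffs (log2 fold change -3.08 ± 2.49). Birc5, the subunit survivin, was at 5.59, 0, 17.9 and 54.5 CPM across Tregs 1 to 4, against 69.5 and 51.0 CPM across Teffs 1 and 2, so Treg 4 lay between the Teff libraries. Cdca8, the subunit borealin, was at 0 to 71.5 CPM in Tregs and 98.4 and 85.3 CPM in Teffs. Incenp, the scaffold of the complex, was found in every library at 7.04 to 39.8 CPM in Tregs and overlapped with Teffs at 31.2 and 95 CPM.

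The spindle checkpoint holds cells back until chromosomes are attached, and its 3 genes among the 43 had no counts in Treg 2. This does not hold for every checkpoint gene, since Zw10, outside the set, was at 35.5 CPM in that library. Bub1, a checkpoint kinase at kinetochores, was at 0, 0, 7.54 and 23.5 CPM across Tregs 1 to 4, against 43 and 56.6 CPM across Teffs 1 and 2. Its partner Bub1b, which encodes BubR1, was at 0, 0, 0.526 and 40.4 CPM across Tregs 1 to 4, against 77.6 and 67.6 CPM across Teffs 1 and 2. In both genes Treg 4 was highest among Tregs and remained below the Teffs (log2 fold changes -2.68 ± 2.13 and -2.82 ± 2.27). Mad2l1, the checkpoint effector Mad2, behaved otherwise, with 65.7 CPM in Treg 1 and 60.5 CPM in Treg 3, 0 and 18.1 CPM in Treg 2 and Treg 4, and 115 and 61.6 CPM across Teffs 1 and 2.

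The 3 genes of the set grouped under the anaphase-promoting complex and mitotic exit had no counts in Treg 1. Cdc20, which activates the anaphase-promoting complex, was low everywhere, at 0, 0, 2.28 and 4.14 CPM across Tregs 1 to 4, against 6.62 and 12 CPM across Teffs 1 and 2. The groups did not overlap, with a log2 fold change of -2.52 ± 2.34. Ube2c, the ubiquitin-conjugating enzyme of that complex, was at 0 to 33.5 CPM in Tregs and 70.2 and 21.5 CPM in Teffs. Cdca3, a regulator of mitotic entry, was at 0 to 42.6 CPM in Tregs and 54.7 and 31.8 CPM in Teffs. In both of these a single Treg library lay above Teff 2, Treg 3 for Ube2c and Treg 2 for Cdca3.

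Among the 7 kinesin motors of the spindle the log2 fold change was -1.22 at the median, and for 5 of them (71.4%, against 9.49% of all genes tested) all Tregs lay below both Teffs. Kif11, the motor Eg5 that pushes spindle poles apart, was at 25.8, 0, 19.8 and 37.4 CPM across Tregs 1 to 4, against 212 and 123 CPM across Teffs 1 and 2. All Treg libraries stood well below both Teffs (log2 fold change -3.01 ± 1.40, edgeR adjusted p = 1). Kif2c, the microtubule depolymerase MCAK, had 0, 0, 0 and 1.85 CPM across Tregs 1 to 4, against 32.4 and 17.1 CPM across Teffs 1 and 2. This was the lowest fold change of the 42 genes, at -5.66 ± 2.47 on the log2 scale, from 13 counts in Treg 4 and 333 in Teffs. Kif2c, which is among the 5 motors without overlap, passed the filter on low counts through the Teff libraries. It is high there, which favours a low fold change. Kif22, a motor on chromosome arms, was at 0 to 62.2 CPM in Tregs and 197 and 97.1 CPM in Teffs, and Kif15, which assists Kif11, at 14.7 to 41.3 CPM against 67.4 and 56.4 CPM. The motors of cytokinesis were less far apart: Kif23 was at 53.1 to 80.3 CPM in Tregs and 131 and 83.3 CPM in Teffs (log2 fold change -0.60 ± 0.49). Kif20a, at 26.9 to 125 CPM in Tregs and 121 and 74.0 CPM in Teffs, was highest of all libraries in Treg 1, and exons of Cdc23 on the opposite strand overlap 29.3% of its exonic bases. Kif4, a chromosome-bound motor, overlapped between groups, with 0 CPM in Treg 1 and 58.2 CPM in Treg 2, against 56.3 and 30.4 CPM across Teffs 1 and 2.

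Spindle proteins showed the same mixture of lower means and missing counts. Tpx2, which activates Aurora A on spindle microtubules, was at 3.97, 0, 44.2 and 16.7 CPM across Tregs 1 to 4, against 80.6 and 52.1 CPM across Teffs 1 and 2. The groups did not overlap, with a log2 fold change of -2.03 ± 1.69. Prc1, which bundles microtubules between separating chromosomes, was at 0 to 57.0 CPM in Tregs and 166 and 148 CPM in Teffs (-2.45 ± 1.48). Stmn1, the microtubule-destabilising protein stathmin, was found in every library, at 2.71 to 27.0 CPM in Tregs and 44.5 and 32 CPM in Teffs. Nusap1 and Hmmr, proteins that bind spindle microtubules, overlapped: Treg 2 reached 75.4 CPM for Nusap1 and Treg 3 63.1 CPM for Hmmr, against 63.2 and 53.7 CPM in Teff 2.

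Kinetochore genes went different ways. Cenpe, a motor that carries chromosomes to the spindle equator, was at 13.9, 0.320, 19.1 and 19.5 CPM across Tregs 1 to 4, against 113 and 93.4 CPM across Teffs 1 and 2. All Tregs were far below both Teffs, with a log2 fold change of -2.96 ± 1.20 (edgeR adjusted p = 0.952). Cenpa, the histone H3 variant that marks centromeres, was at 15.9, 93.8, 46.1 and 72.2 CPM across Tregs 1 to 4, against 40.8 and 37.4 CPM across Teffs 1 and 2. Treg 2, Treg 3 and Treg 4 were above both Teffs and Treg 1 below, so its positive log2 fold change of 0.54 ± 0.84, the highest of the 42, was within the spread. Cenpf, a large kinetochore protein, was at 16.7 to 20.6 CPM in 3 Treg libraries and 77.0 CPM in Treg 2, against 75.3 and 68.0 CPM across Teffs 1 and 2.

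**Figure D4:**
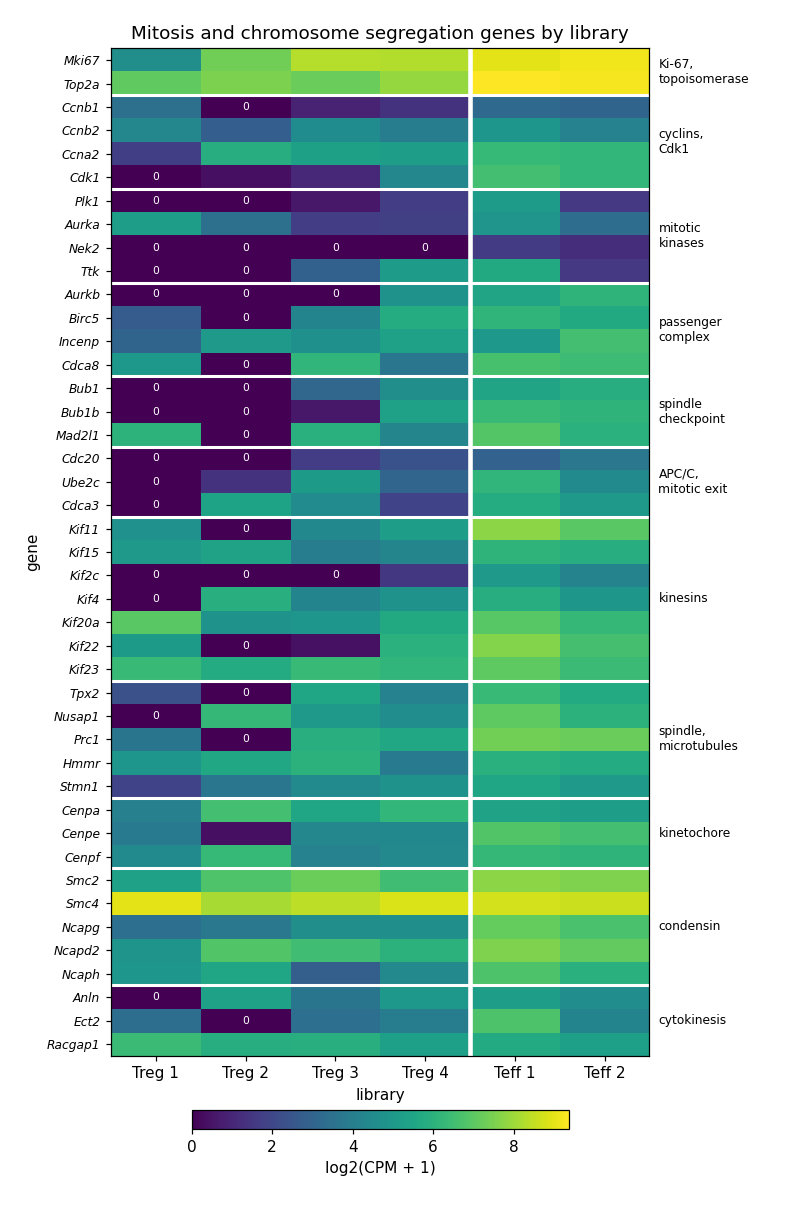
Level of each of the 43 genes (rows, by role) in each library (columns), as log2(CPM + 1) in colour, with 0 printed where a library had no counts. Treg 1 and Treg 2 carry most of the zeros, both Teff columns are filled throughout, and Smc4 is bright in all 6 libraries.

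Condensin, the complex that compacts chromosomes, held subunits far apart in fold change, and for 4 of its 5 genes (80%, against 9.49% of all genes tested) all Tregs lay below both Teffs. Smc4, an ATPase core subunit, was at 500, 279, 348 and 452 CPM across Tregs 1 to 4, against 420 and 388 CPM across Teffs 1 and 2. The groups overlapped fully and the log2 fold change was -0.03 ± 0.35, with a sign that turned without Treg 2 (0.10), Treg 3 (0.03) or Teff 1 (0.02). Its partner Smc2 was at 40.2, 109, 152 and 89.9 CPM across Tregs 1 to 4, against 212 and 185 CPM across Teffs 1 and 2, without overlap (-1.02 ± 0.53, edgeR adjusted p = 1). The condensin I subunit Ncapg was at 9.74, 12.5, 23.7 and 24.3 CPM across Tregs 1 to 4, against 142 and 102 CPM across Teffs 1 and 2. Every Treg library was far below both Teffs, and the log2 fold change of -2.79 ± 0.68 had the next lowest p-value after Top2a (edgeR adjusted p = 0.507). Ncapd2 and Ncaph, the other condensin I subunits, also had all Tregs below both Teffs, at 28.0 to 113 CPM against 187 and 139 CPM and at 6.14 to 44.5 CPM against 108 and 60.5 CPM. Exons of Lcorl on the opposite strand overlap 13.4% of the exonic bases of Ncapg, which lies on chromosome 5 from 45669919 to 45700546, and Smc4 lies on chromosome 3 from 69004738 to 69034623 (GRCm38).

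Cytokinesis genes had the median log2 fold change nearest 0 of the 11 roles, at -0.52. Anln, the scaffold anillin of the contractile ring, was at 0, 40, 11.6 and 30.7 CPM across Tregs 1 to 4, against 36.3 and 22.9 CPM across Teffs 1 and 2. Treg 2 was the highest of all libraries and Treg 1 had no counts (log2 fold change -0.52 ± 1.77). Racgap1, which pairs with Kif23 in the midbody complex centralspindlin, was at 83, 56.5, 57.5 and 38.0 CPM across Tregs 1 to 4, against 52.4 and 38.4 CPM across Teffs 1 and 2. It was the other gene with a positive log2 fold change, 0.37 ± 0.66, and the groups overlapped. Ect2, the exchange factor that activates RhoA at the division plane, was at 0 to 14.1 CPM in Tregs, below 107 and 17.6 CPM across Teffs 1 and 2, which differed 6.10-fold from each other.

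Levels between genes were compared per kilobase of exon (GENCODE M21). Smc4 stood first in both groups, at 75.8 CPM per kilobase in Tregs and 77.5 in Teffs. Top2a and Mki67 followed, at 19.4 and 20.4 CPM per kilobase in Tregs and 69.7 and 54.0 in Teffs. The median over the 43 genes was 4.68 CPM per kilobase in Tregs and 15 in Teffs. Cdk1 took place 38 of 43 in Tregs and place 20 in Teffs, while Cenpa took place 8 in Tregs and place 34 in Teffs. Exons of other genes overlap more than 10% of the exonic bases of 6 of the genes (Ccna2, Ube2c, Kif4, Kif20a, Prc1 and Ncapg). Annotated pseudogenes bear the names of 4 (Ccnb1, Ccnb2, Kif4 and Kif22), so reads shared with these copies leave their levels uncertain.

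Among Tregs, the library with the highest level differed from gene to gene, while the lowest was most often Treg 1 or Treg 2. Treg 4 was highest among Tregs for 17 of the 42 genes, Treg 2 for 10, Treg 3 for 9 and Treg 1 for 6. Treg 1 was lowest alone for 15 genes, Treg 2 for 14, Treg 3 for 4 and Treg 4 for 2. The median level over the whole mitosis set was 9.92 CPM in both Treg 1 and Treg 2, 21.4 CPM in Treg 3 and 24.3 CPM in Treg 4. Across the 42 genes, Spearman's rho of CPM was 0.385 to 0.603 among Tregs and 0.821 for the pair of Teffs. Across groups it was 0.318 to 0.677, a range that overlapped the one among Tregs. Over all genes tested the values were 0.649 to 0.748 between Tregs, 0.883 between Teffs and 0.7 to 0.815 between groups. These correlations are across genes, which are not independent replicates, and depend on how many genes each library missed. They compare libraries and do not measure whether the genes rise and fall together. Teff 1 exceeded Teff 2 for 37 of the 42 genes, by a median of 1.36-fold, and 6 genes differed by more than 3-fold between them: Ttk, Plk1, Ect2, Ube2c and Aurka were higher in Teff 1 and Incenp was higher in Teff 2.

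Other genes of the cell cycle were set beside these, from lists that share no gene with the 43. Of 63 other mitosis genes tested, 0 were called in either direction and 58 had a negative log2 fold change (92.1%, against 46.6% of all genes tested). All Tregs lay below both Teffs for 20 of them (31.7%, against 9.49%) and above both for 1 (1.59%, against 5.51%). Their median log2 fold change was -1.08. Of 53 DNA replication genes, 0 were called, 44 were negative (83%), 12 lay below (22.6%) and 1 above (1.89%), with a median of -0.78. The 24 cell cycle transcription factors and DREAM subunits (median -0.18, 13 negative) and the 16 G1 cyclins, CDKs and CDK inhibitors (median -0.11, 8 negative) had medians nearer the 0.07 of all genes, also with 0 called. All Tregs lay below both Teffs for 4 of the transcription factor and DREAM genes (16.7%) and above for 0. For the G1 genes they lay below for 5 (31.2%) and above for 2 (12.5%, against 5.51% of all genes tested). The ratio of summed CPM of the 43 genes to that of the replication genes was 0.429, 0.673, 0.607 and 0.671 across Tregs 1 to 4, against 0.803 and 1.03 in Teff 1 and Teff 2, without overlap.

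**Figure D5:**
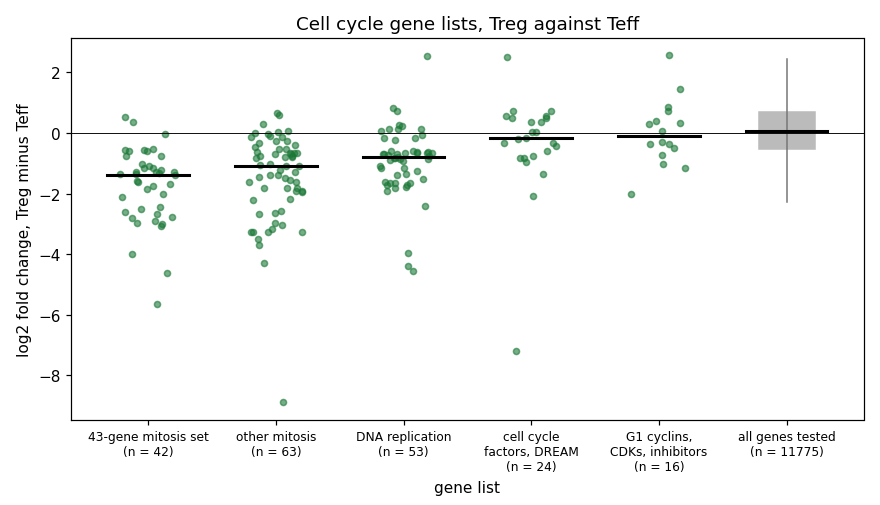
Log2 fold change, Treg minus Teff (y axis), of each tested gene (points) in the 43-gene mitosis set and in the other cell cycle lists (x axis), with medians as black bars. The grey box and line give the 25th to 75th and the 5th to 95th percentile of all genes tested. Medians run from -1.39 in the mitosis set to -0.11 in the G1 list, beside 0.07 over all genes.

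Among genes of these lists at or above a mean of 33.1 CPM, Cdca2, a chromatin protein of mitotic exit, had the lowest fold change of the other mitosis genes. It was at 41.7, 2.08, 0 and 37.7 CPM across Tregs 1 to 4, against 78.5 and 74.2 CPM across Teffs 1 and 2 (-1.91 ± 1.71). Casc5, a kinetochore scaffold, and Zw10, a checkpoint protein, followed at -1.83 ± 1.23 and -1.01 ± 0.51, while the securin gene Pttg1 (0.31 ± 0.55), Ncapd3 (0.08 ± 0.42) and Ncaph2 (0.02 ± 0.36), both of condensin II, were near 0. Clspn, a checkpoint adaptor at replication forks (-2.40 ± 1.69), Mcm3 (-1.91 ± 1.37) and Uhrf1 (-1.81 ± 1.61) were lowest among replication genes of that level. Mcm6, which like Mcm3 is a subunit of the replicative helicase, lay on the other side at 205, 117, 133 and 137 CPM across Tregs 1 to 4, against 78.0 and 99.4 CPM across Teffs 1 and 2 (0.74 ± 0.44), with Rfc2 (0.24 ± 0.49) and Rpa1 (0.14 ± 0.57) near 0. None of these passed the test (edgeR adjusted p = 1).

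Regulators of these genes at or above the same mean of 33.1 CPM did not pass either, and the ranks here hold for that level alone. Cdkn1b, the CDK inhibitor p27, was at 172, 184, 172 and 136 CPM across Tregs 1 to 4, against 87.4 and 111 CPM across Teffs 1 and 2. All Tregs lay above both Teffs (0.74 ± 0.39, edgeR adjusted p = 1). The other CDK inhibitor genes at that level, Cdkn1a (-0.30 ± 0.73) and Cdkn2d (-0.37 ± 0.45), overlapped between groups. Below that level, the kinase gene Cdk6 also had all Tregs above both Teffs. It was at 26.2, 12.5, 37.3 and 29.5 CPM across Tregs 1 to 4, against 2.65 and 6.2 CPM across Teffs 1 and 2 (2.57 ± 1.36). Cdkn1a, Cdkn2d and Cdk6 were named after their values were seen. Rb1 (-0.84 ± 0.53), Lin37 (-0.95 ± 0.74) and Rbbp4 (-0.82 ± 0.47) were lowest among the transcription factor and DREAM genes, and the pocket protein genes Rbl1 (0.57 ± 0.64) and Rbl2 (0.38 ± 0.40) and the repressor gene E2f4 (0.02 ± 0.92) were highest. Among G1 genes, Ccnd3, a D-type cyclin (-1.01 ± 0.52), the antiproliferative Btg2 (-0.74 ± 0.34) and Cdk4 (-0.50 ± 0.45) were lowest, and Ccng1 (0.86 ± 0.66), Cdkn1b and Ccnd2 (0.33 ± 0.33) highest. Foxm1, the activator of late cell cycle genes, chosen here after its values were seen, was at 23.1, 0, 23.0 and 64.3 CPM across Tregs 1 to 4, against 38.1 and 23.3 CPM across Teffs 1 and 2, with Treg 4 highest (-0.15 ± 1.77).

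An unadjusted edgeR p under 0.05 was found for 4 genes of these lists, all lower in Tregs and named after their values were seen. They were 2 of 63 other mitosis genes, 1 of 53 replication genes, 1 of 24 transcription factor and DREAM genes and 0 of 16 G1 genes. Over all genes tested 2.31% were lower at that threshold, so the 4 are not read as a result about these lists. Kif18a, a motor that limits chromosome movement, was at 0.480 to 4.71 CPM in Tregs and 49.0 and 21.7 CPM across Teffs 1 and 2 (log2 fold change -3.71 ± 1.45, edgeR adjusted p = 0.902). Fen1, the flap endonuclease of replication, was at 18.4 to 37.0 CPM in Tregs and 107 and 55.8 CPM in Teffs (-1.72 ± 0.72, edgeR adjusted p = 1). Cdca5, which encodes the cohesin stabiliser sororin, had 1 count over all Treg libraries and 404 over Teffs, a ratio of 0.00128 with an exact 95% counting interval of 3.24e-05 to 0.0072 (edgeR adjusted p = 0.459). Mybl1, a relative of B-MYB, had 0 counts in Tregs and 35 in Teffs, at least 22.5-fold lower (edgeR adjusted p = 0.721). Both the interval for Cdca5 and the bound for Mybl1 come from pooled reads and leave out the spread between libraries, and the bound takes the Teff counts as exact. Neither can therefore show that the groups differ. With that spread, the log2 fold change of Cdca5 was -8.9 ± 2.12. Cdca5 and Mybl1 passed the filter on low counts through the Teff libraries alone, where they are high, which favours a low p.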

How the data were processed

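The authors deposited 1 table of raw whole-number counts per gene for 6 libraries, per the file headers and values, with their own comparison beside it: a log2 fold change and mean log2 CPM on the log2 scale and a p-value with FDR, all as the authors deposited them. Per the labels' protocols, column-purified RNA was amplified by SMARTer chemistry for ultra-low input. HTSeq 0.6.1, SAMtools 0.1.19.0, TopHat2 2.0.12 with Bowtie2 2.1.0.0, build mm10 and CASAVA 1.8.2 appear in the submitters' processing notes. Annotation, strand setting and the authors' test: not given in the sources used here. Counter rows (3, holding 88% to 90.2% of column totals) were left out. No column belonged to another series.

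Counts were fitted in R 4.3.3 with edgeR 4.0.16 (filterByExpr, smallest count 10; TMM; glmQLFit and glmQLFTest on group, all 6 libraries, Benjamini-Hochberg over 11775 genes, called at 0.05), with limma 3.58.1 and DESeq2 1.42.0 as alternatives. The SE is the log2 fold change over the square root of F. An exact permutation test of 4 against 2 libraries cannot go below p = 0.0667 (two-sided) and was not used. Intervals cover counting error only, and floors cover that of Tregs alone, with Teff counts taken as exact.

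The genes and lists were chosen with earlier results of these data known. Per-library values are given for the first gene of each role, the 5 lowest and 5 highest fold changes and Nek2. Top2a, Ncapg, Cenpe, Birc5, Bub1b, Aurka, Ttk and Mad2l1 were added after values were seen. In other lists, the 3 lowest and 3 highest fold changes among genes at or above the median level of 33.1 CPM were named. Alternatives were other scalings and filters, each library left out, a replicate block, other tools and a threshold of 0.01.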

Additional observations from a re-analysis of the deposited data

Results flagged for a closer look

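In 6 of 44 items examined (the 43 genes and their sum), 1 of the 4 Treg libraries stood far from the rest, by Dixon's 95% criterion on the gap over the range. Chance flags about 1 in 20 groups of continuous values. For Aurkb and Kif2c the other 3 Treg libraries had no counts, so the gap equals the range by construction, and for Cdk1 and Bub1b the others were at or near 0, so that rate does not apply to these 4. Treg 4 was the high library for Cdk1 (19.4 CPM), Aurkb (26.3 CPM), Bub1b (40.4 CPM) and Kif2c (1.85 CPM), Treg 1 for Ccnb1 (9.92 CPM) and Treg 2 for Cenpf (77.0 CPM). Treg 4 also had 43.1 CPM of Cd8a, which had no counts in the other Treg libraries and was at 66.1 and 45.2 CPM across Teffs 1 and 2. Cd8b1 was at 22.5 CPM, against 0.18 to 12.8 CPM in the other Tregs and 76.4 and 48.5 CPM across Teffs 1 and 2. The macrophage and dendritic cell markers of Treg 4 summed to 579 CPM, against 110 to 186 CPM in the other Tregs and 278 and 191 CPM across Teffs 1 and 2. Lyz2 made up 464 CPM of this sum, and Emr1 (43.7 CPM), Flt3 (27.5 CPM) and Itgax (24.7 CPM) were also highest in Treg 4. Csf1r (0.713 CPM), C1qa (0.143 CPM) and Cd68 (18 CPM) were not, with Csf1r at 78.1 CPM in Treg 1. Kit was at 26.1 CPM, against 0 to 8.41 CPM in the other Tregs and 0.927 and 0 CPM across Teffs 1 and 2. The part of these cell types in the Treg 4 values was not tested.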

How the results depend on the processing

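The median log2 fold change of the 42 genes tested (-1.39), the 23 genes without overlap and the log2 ratio of summed CPM (-1.30) kept their direction under the scalings, filters and left-out libraries tried. With 1 library left out, the median ran from -1.84 to -1.11, the genes without overlap from 24 to 33 (13.5% to 18.9% of all genes, against 9.49% with all libraries), the ratio from -1.48 to -1.14, and the calls stayed at 0. Upper-quartile scaling moved the median of all genes by -0.11. DESeq2 called 2 genes (Top2a and Ncapg). Limma-voom gave a median of -2.88, beside -0.45 over all genes. Without Treg 1 and Treg 2, chosen after seeing the data, 31 genes had no overlap (20.9% of all genes) and the median was -1.41; without Treg 3 and Teff 1, 26 (23.8%) and -1.20.

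The replicate numbers do not pair the libraries by any label, and the differences of libraries 1 and 2 correlated at 0.0661 between groups. With a replicate block, from which Treg 3 and Treg 4 drop out, the median was -3.61 (all genes -0.64) with 0 calls, and Aurka (0.22) and Cenpa (-0.01) changed sign. With 1 library left out, Smc4 ran from -0.17 to 0.10 (above 0 without Treg 2, Treg 3 or Teff 1), Aurka from -1.96 to 0.48 and Ttk from -3.61 to 2.39 (both above 0 without Teff 1). Without Treg 4, Aurkb was at -11.4, Kif2c at -10.22, Bub1b at -8.55 and Cdk1 at -7.46, and without Teff 1 Plk1 was at -1.44. The cause was not tested. The depth cannot separate genes under about 0.581 CPM from absence.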
